A study of Mus musculus with 6 samples.

Results

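FXR ChIP-seq peaks were examined at 8 transcription factor genes that define hepatocyte identity, namely Hnf4a, Foxa1, Foxa2, Foxa3, Cebpa, Cebpb, Onecut1 and Prox1. The members were all peaks that the authors' annotation assigned to one of these genes as the nearest transcription start site (TSS). They were 41 of 20040 peaks in the WT list and 22 of 12495 peaks in the LKO list. All 8 genes had at least 1 peak in each list. In total, 9025 genes had a WT peak and 6877 an LKO peak, and their share of all annotated genes was not computed. A WT and an LKO peak that overlapped by 1 bp or more were called shared, and the others were called WT-only or LKO-only.

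FXR ChIP-seq was performed on livers of male C57BL/6 mice of 2 genotypes, with 2 ChIP libraries and 1 input library each. Bcl6 fl/fl mice, written WT, had both Bcl6 alleles floxed and were the control group. Bcl6LKO mice, written LKO, carried the same floxed alleles with Alb-cre, which is active in hepatocytes, so the other cells of the liver kept Bcl6. The age of the mice was not given in the sources used here, and neither the tissue label nor the deletion could be checked from peak positions, because no expression was measured in these libraries.

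FXR is the bile acid receptor, a nuclear receptor that usually binds DNA with RXR at an inverted repeat of the AGGTCA half-site with a 1-base spacer (IR1). HNF4A is a nuclear receptor that binds direct repeats with a 1-base spacer (DR1) and is required for the differentiated state of hepatocytes. FOXA1, FOXA2 and FOXA3 are forkhead proteins that open chromatin during liver development. C/EBPα and C/EBPβ are basic leucine zipper proteins of metabolic and acute-phase genes, HNF6 (encoded by Onecut1) is a cut-homeodomain protein, and PROX1 is a homeodomain protein that binds together with nuclear receptors in liver. These factors bind one another's genes and so form a network that keeps hepatocyte identity. BCL6 is a transcriptional repressor of hepatic genes.

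Sequences of 7 WT peaks are shown because they carry the motif matches or the high levels described afterwards. They are from the + strand of GRCm38.p6, which has the coordinates of mm10, and capitals mark the matches to the motif named on each line that lay within 100 bp of the peak centre.
Hnf4a promoter, chr2:163546711-163546921, IR1: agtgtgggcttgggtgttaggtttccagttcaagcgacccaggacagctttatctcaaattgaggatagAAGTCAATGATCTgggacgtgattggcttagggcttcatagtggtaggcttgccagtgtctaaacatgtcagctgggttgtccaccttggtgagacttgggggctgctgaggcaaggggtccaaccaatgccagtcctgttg
Foxa2 downstream, chr2:148025580-148025790, DR1: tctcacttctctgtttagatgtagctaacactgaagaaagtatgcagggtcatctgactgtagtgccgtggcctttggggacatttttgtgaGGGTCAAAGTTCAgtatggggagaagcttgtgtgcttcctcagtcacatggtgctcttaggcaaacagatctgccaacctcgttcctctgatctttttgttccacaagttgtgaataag
Cebpa upstream, chr7:35117784-35117994, DR1: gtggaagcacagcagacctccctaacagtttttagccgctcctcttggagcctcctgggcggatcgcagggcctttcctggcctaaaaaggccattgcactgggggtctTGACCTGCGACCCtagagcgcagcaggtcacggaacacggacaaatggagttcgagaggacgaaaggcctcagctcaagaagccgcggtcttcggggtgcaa
Foxa2 far downstream, chr2:147942725-147942935, FOXA: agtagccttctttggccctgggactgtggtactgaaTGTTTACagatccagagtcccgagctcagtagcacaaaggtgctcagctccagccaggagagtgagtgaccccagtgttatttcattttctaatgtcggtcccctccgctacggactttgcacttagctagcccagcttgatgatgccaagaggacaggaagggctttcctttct
Hnf4a intron, chr2:163555428-163555638, FOXA: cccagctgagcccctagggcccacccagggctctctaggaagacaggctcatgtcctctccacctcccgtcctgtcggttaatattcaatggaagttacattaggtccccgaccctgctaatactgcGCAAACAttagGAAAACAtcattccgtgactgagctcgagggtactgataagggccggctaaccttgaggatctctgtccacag
Cebpb upstream, chr2:167687756-167687966, C/EBP: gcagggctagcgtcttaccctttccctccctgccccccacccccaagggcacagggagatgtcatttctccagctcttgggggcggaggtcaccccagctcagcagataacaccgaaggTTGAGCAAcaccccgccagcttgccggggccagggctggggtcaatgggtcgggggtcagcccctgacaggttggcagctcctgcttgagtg
Onecut1 intron, chr9:74866711-74866921, HNF6: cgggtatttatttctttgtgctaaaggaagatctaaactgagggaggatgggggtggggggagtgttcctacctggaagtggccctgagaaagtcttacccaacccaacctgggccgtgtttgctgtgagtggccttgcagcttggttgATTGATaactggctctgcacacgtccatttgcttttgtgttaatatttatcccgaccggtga

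Library totals were 19022618 tags in WT replicate 1, 2883717 in WT replicate 2 and 21287263 to 22637613 in the LKO replicates, with 6935001 to 6964271 in the inputs. At the members, WT replicate 1 held an estimated 13.7 to 323 tags per peak and WT replicate 2 held 2.55 to 86.7. Of the 41 WT members, 20 had at least 10 estimated tags in both libraries, as had all 22 LKO members. Each list was made from pooled replicates, so counts of peaks and overlaps carry no replicate spread. The WT input value was among the highest 5% of the list at 3 members, with an estimated 2.66 to 3.50 input tags, and at 0 LKO members.

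The peaks were spread unevenly over the 8 genes. In the WT list, Prox1 had 10 peaks, Foxa2 had 9, Cebpa had 8 and Foxa1 had 7, against a median of 1 peak over the 9025 genes with any peak. Onecut1 had 3 WT peaks, Hnf4a had 2, and Foxa3 and Cebpb had 1 each. In the LKO list, Foxa2 had 6 peaks, Cebpa and Prox1 had 4 each, Hnf4a, Foxa1 and Foxa3 had 2 each, and Cebpb and Onecut1 had 1 each. Foxa3 was the single member with more LKO than WT peaks. A gene that is the nearest one over a long stretch collects more peaks, so counts were also set against the length over which each TSS was the nearest. Per 100 kb of that stretch, WT peaks ranged from 2.62 at Foxa2 to 12.3 at Cebpa, and the genome as a whole held 0.735. Of the WT members, 34.1% lay beyond 50 kb of the TSS, against 21.2% of all WT peaks. All of these far members were at Foxa1, Foxa2 and Prox1, whose nearest-TSS stretches were the longest of the 8 (167, 343 and 241 kb). In LKO the shares were 27.3% and 21.3%. No interval was computed for these shares. The WT members were more often intergenic than all WT peaks, 53.7% against 35.3%, and 3 of 41 lay at a promoter.

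**Figure D1:**
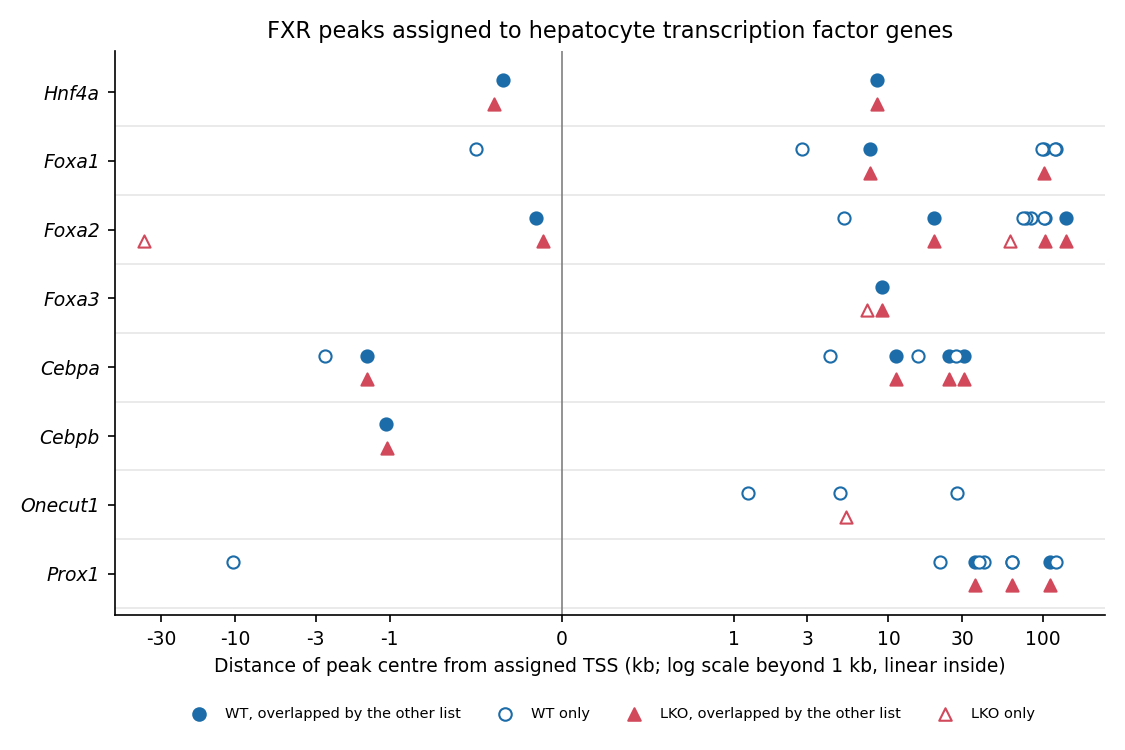
Distance of each peak centre from its assigned TSS (kb, negative upstream, linear within 1 kb and on a log scale beyond) for 40 of the 41 WT peaks (circles) and 21 of the 22 LKO peaks (triangles) of the 8 genes, filled where the other list had an overlapping peak. Of all member peaks, 18 pairs were shared, 23 peaks were WT-only and 4 were LKO-only, and Onecut1 was the gene without a shared pair.

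Of the 41 WT members, 18 were shared with the LKO list (43.9%, 95% Wilson interval 29.9 to 59.0), where 49.5% of all WT peaks were shared. Of the 22 LKO members, the same 18 pairs made 81.8% (61.5 to 92.7), against 79.4% of all LKO peaks. Both intervals cover the share of the whole list, so an overlap different from that of other peaks was not detectable with this number of peaks. The intervals cover counting error only, and peaks of the same gene share a locus and are not independent. Hnf4a and Cebpb had no peak in 1 list alone. The WT-only peaks were at Prox1 (6), Foxa1 (5), Foxa2 (5), Cebpa (4) and Onecut1 (3), and the LKO-only peaks were at Foxa2 (2), Foxa3 (1) and Onecut1 (1).

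Overlap rose with peak strength, the mean log2 value of both ChIP libraries. Among WT members, 0 of 6 in the weakest quartile of the list were shared, 1 of 10 in the next, 7 of 14 in the next and 10 of 11 in the strongest quartile. Over all WT peaks the shares were 13.9%, 33.0%, 60.7% and 90.3%. Among LKO members, 2 of 6 in the weakest quartile were shared and all 16 in the other quartiles. Over all LKO peaks the shares were 57.5%, 75.4%, 88.2% and 96.5%, from the weakest quartile to the strongest. The 4 LKO-only members were all among the weakest quartile, at percentiles 2.2 to 24.2 of the LKO list. Of all 2577 LKO-only peaks, 1330 were in that quartile. The WT-only peaks had a median percentile of 35.1 (range 1.67 to 79.5) and the shared WT peaks one of 76.6 (34.8 to 98.8). The list was called with fewer tags in WT than in LKO, and the part of depth and threshold in the unshared peaks was not tested.

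**Figure D2:**
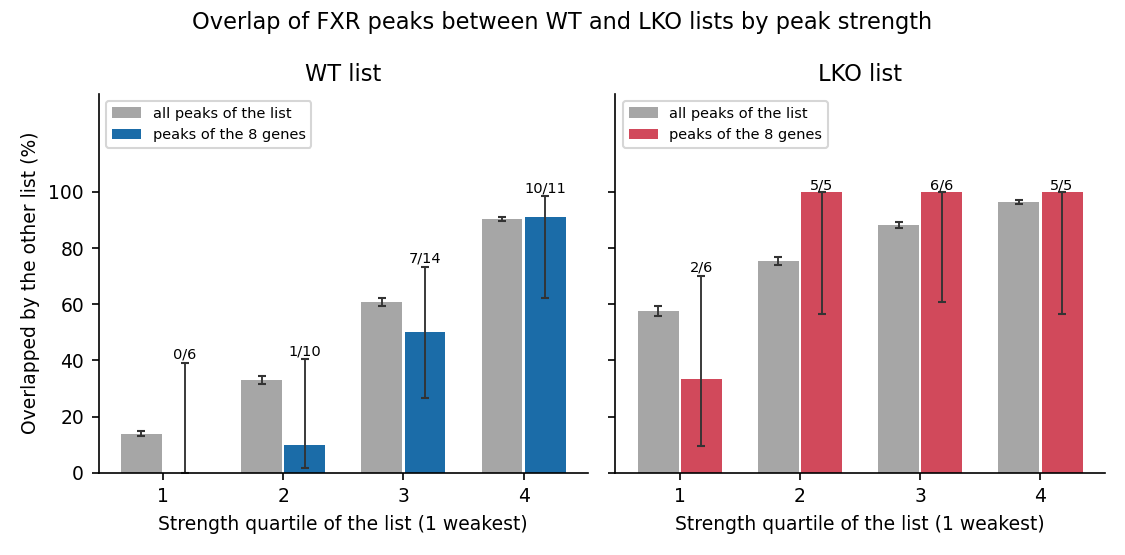
Share of peaks overlapped by the other list (%, bars) with 95% Wilson intervals, by strength quartile of the WT list (left) and the LKO list (right), for all peaks (grey) and the peaks of the 8 genes (coloured, with counts). The members' shares rose from 0 of 6 to 10 of 11 in WT, and each interval included the share of all peaks.

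Levels at the 18 shared peaks were compared as the log2 value minus the median of all 9918 shared peaks in the same library, called the relative level. The tables had been normalized separately and each genotype had 2 libraries, so no test was made; an exact permutation test of 2 against 2 libraries cannot give a two-sided p below 0.333. The median difference, LKO minus WT, was -0.13 over the 18 pairs (range -1.05 to 0.32), and 0.03 over all shared pairs. The differences of all shared pairs had an SD of 0.60. The pooled SD given with a named pair covers the 2 libraries per genotype only, not this spread. Both LKO libraries lay below both WT libraries at 6 of 18 pairs, a share of 33.3% where 25.2% of all shared pairs did. Both lay above at 1 pair, where 29.8% of all pairs did, and the libraries overlapped at the other 11. The median stayed negative on every scale tried, but these counts and the sign at 4 pairs depended on the scale. On the deposited values 9 pairs were below and 0 above. With each table divided by its mean library total 18 were below and 0 above. The shares over all 9918 shared pairs were not computed on these scales. A change of scale adds 1 constant per library, and so 1 constant to the mean difference of every pair, members and others alike. The gap between replicates also shifts, so the counts without overlap do not follow from the shift in the difference alone. The order of the mean differences does not depend on the scale, and these counts show no trait of the members. A genotype difference common to all shared peaks drops out of the relative level. On the other scales such a difference cannot be told from the separate normalization of the tables. Whether the number of hepatocytes or the amount of FXR per cell differed in these bulk livers was not tested.

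**Figure D3:**
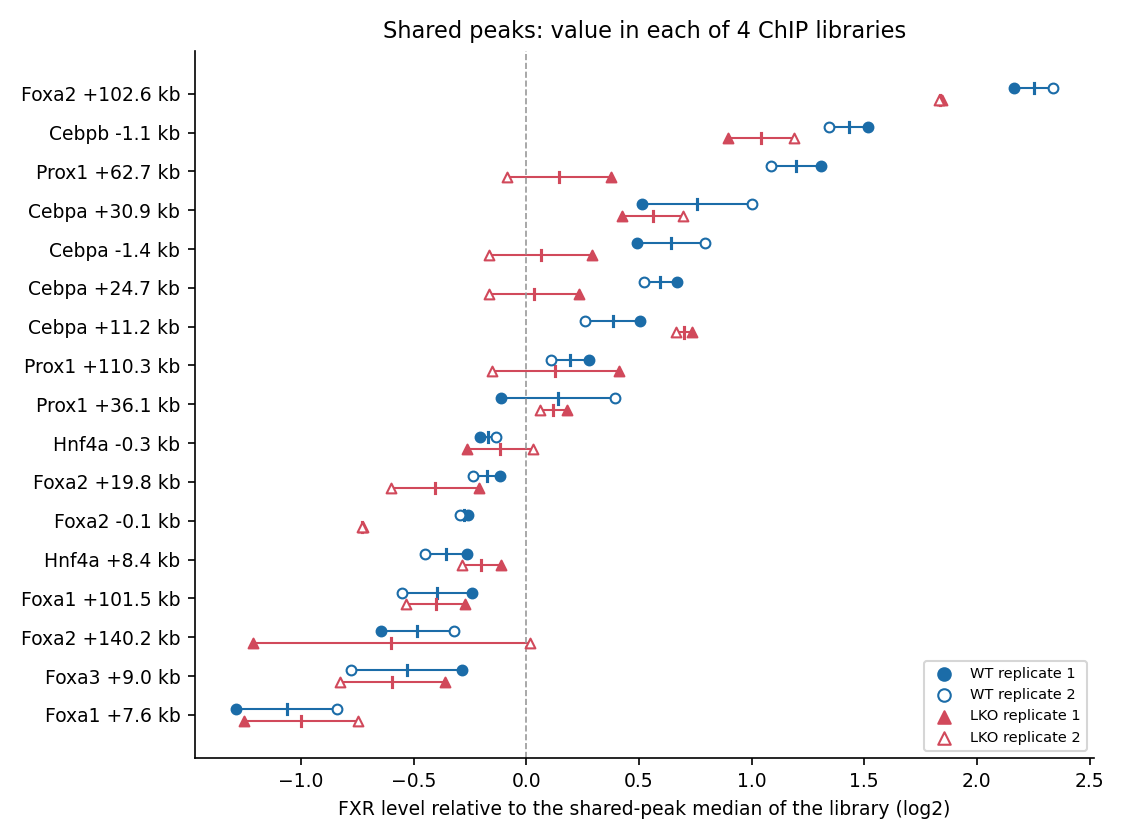
Relative level (log2, centred on the shared-peak median of the library) of 17 of the 18 shared peaks, named by gene and signed distance from the TSS, in WT (circles) and LKO (triangles) replicates 1 (filled) and 2 (open), with vertical ticks at the means. The Prox1 peak 62.7 kb downstream had the widest gap between genotypes, -1.05, and the Foxa2 peak 102.6 kb downstream had the highest level of those drawn in both.

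Hnf4a (chr2:163506811-163572907, + strand) kept both of its peaks in LKO. One peak lay 339 bp upstream of the downstream TSS of the gene (WT chr2:163546711-163546921), the promoter known as P1 that serves adult hepatocytes, and no peak was assigned to the upstream start of the gene. Its relative level was -0.20 and -0.13 in the WT libraries and -0.26 and 0.03 in the LKO libraries. The genotypes overlapped, and the difference was 0.05 with a pooled SD of 0.15 (n = 2 per genotype). The peak stood at percentile 68.1 of the WT list and 53.7 of the LKO list, with an estimated 55.5 and 12.7 tags in WT and 34.4 and 39.3 in LKO. Over all shared pairs the median percentile was 72.2 in the WT list and 57.7 in the LKO list. A lower percentile in LKO is thus not by itself a lower level. The other peak, in the third intron 8.4 kb downstream, had relative levels of -0.26 and -0.45 in WT and -0.11 and -0.29 in LKO. These overlapped too, with a difference of 0.16 (pooled SD 0.13).

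The forkhead genes differed in how many of their peaks recurred. Foxa1 (chr12:57540628-57548029, - strand) had 7 WT peaks, of which 2 were shared. Its promoter peak, 496 bp upstream of the TSS (chr12:57546502-57546712), was WT-only, with relative levels of -1.35 and -1.02 and an estimated 25.1 and 6.86 tags. The nearest LKO peak was 7884 bp away. The strongest Foxa1 peak lay 101.5 kb downstream in the last intron of Mipol1 (chr12:57444471-57444681), and 4 of the 7 WT peaks were in that intron. It read -0.24 and -0.55 in WT and -0.27 and -0.53 in LKO, so both genotypes covered the same range, and its WT input was also among the high ones. The strongest of the WT-only peaks, 119.2 kb downstream, read -0.88 and -0.48 and stood at percentile 49.9.

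Foxa2 (chr2:148042877-148046969, - strand) had 9 WT and 6 LKO peaks, with 4 shared. Of the WT peaks, 6 lay 74.0 to 140.2 kb downstream. One of them, 102.6 kb downstream (chr2:147942725-147942935), was among the strongest, at percentile 98.1 of the WT list. Its relative level was 2.17 and 2.34 in WT and 1.85 and 1.83 in LKO, a difference of -0.41 (pooled SD 0.09), and the centres of the WT and LKO peaks were 1 bp apart; its WT input was high as well. The promoter peak, 148 bp upstream of the TSS (WT chr2:148047012-148047222), read -0.26 and -0.30 in WT and -0.72 and -0.73 in LKO. Here too both LKO libraries were below both WT libraries, with a difference of -0.45 (pooled SD 0.02), and the WT input value was 1 of the 3 high ones. The Foxa2 differences of -0.41 and -0.45 stood at percentiles 19.0 and 17.1 of those of all shared pairs. The peak 140.2 kb downstream had the widest replicate gap of the shared members, with -1.21 and 0.02 in LKO.

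The strongest WT-only peak of the 8 genes was also at Foxa2, 101.1 kb downstream (chr2:147944223-147944433), 1289 bp from the nearest LKO peak. It read -0.30 and 0.90 in the WT libraries and stood at percentile 79.5, so the deeper library gave the lower value. Both LKO-only peaks of Foxa2 were weak. The peak 60.6 kb downstream (chr2:147984729-147984933) read -1.33 and -0.58 in the LKO libraries, and the peak 38.9 kb upstream (chr2:148085784-148085988) read -0.43 and -1.06.

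Foxa3 (chr7:19013283-19023539, - strand) had 1 shared peak in its last exon, 9.0 kb downstream of the TSS (WT chr7:19014399-19014609). It read -0.28 and -0.78 in WT and -0.36 and -0.82 in LKO, and the difference of -0.06 was smaller than its pooled SD of 0.34. An LKO-only peak lay in the intron (chr7:19016115-19016319), 1505 bp from the shared WT peak. It read -0.85 and -1.07 in the LKO libraries, at percentile 14.0.

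Cebpa (chr7:35119293-35121928, + strand) was the gene with the densest WT peaks, 8 within a stretch of 64.9 kb. Its 4 shared peaks were all in the strongest quartile of the WT list, at percentiles 81.2 to 87.1. The peak 30.9 kb downstream was the strongest, with 0.51 and 1.00 in WT and 0.42 and 0.70 in LKO, and the genotypes overlapped. The peak 1.4 kb upstream (WT chr7:35117784-35117994) read 0.49 and 0.80 in WT and 0.29 and -0.16 in LKO, a difference of -0.58 (pooled SD 0.27). That difference stood at percentile 11.7 of those of all shared pairs.

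At the Cebpa peak 24.7 kb downstream the levels were 0.67 and 0.52 in WT and 0.23 and -0.17 in LKO. The difference was -0.56 (pooled SD 0.21), at percentile 12.4 of those of all shared pairs. The peak 11.2 kb downstream (WT chr7:35130388-35130598) had the opposite order, with 0.50 and 0.26 in WT and 0.73 and 0.67 in LKO. This difference, 0.32 (pooled SD 0.13), was the highest of the 18 and became -0.01 on the deposited values. Among all shared pairs it stood at percentile 69.9. The strongest WT-only Cebpa peak lay 2.6 kb upstream, read -0.37 and -0.45, and was 1014 bp from the nearest LKO peak. Cebpb (chr2:167688915-167690432, + strand) had a single peak 1.1 kb upstream (WT chr2:167687756-167687966), shared and strong in both lists. It read 1.52 and 1.35 in WT and 0.90 and 1.19 in LKO, at percentile 93.9 of the WT list and 85.4 of the LKO list. The difference of -0.39 (pooled SD 0.17) stood at percentile 20.7 of those of all shared pairs.

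Onecut1 (chr9:74861921-74889648, + strand) had 3 WT peaks and 1 LKO peak, none of which overlapped. The strongest WT peak and the LKO peak were nevertheless neighbours in the same intron, 209 bp apart from edge to edge. The WT peak (chr9:74866711-74866921) read -0.35 and -0.74 and stood at percentile 55.2. The LKO peak (chr9:74867131-74867335) read -1.35 and -1.16 and stood at percentile 2.2, with an estimated 16.2 and 17.2 tags. The other WT peaks, in the first exon and at the gene end, were weak, at percentiles 1.67 and 28.4.

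Prox1 (chr1:190118035-190170827, - strand) had 10 WT peaks and 4 LKO peaks, all 4 of them shared, and held the widest difference between genotypes. The peak 62.7 kb downstream (WT chr1:190106756-190106966) read 1.31 and 1.09 in WT and 0.37 and -0.08 in LKO. This difference of -1.05 (pooled SD 0.25) stood at percentile 2.08 of the 9918 shared pairs, so nearly all other pairs lay above it. A weaker WT-only peak, 63.3 kb downstream, began 447 bp from the edge of the LKO peak there. The Prox1 pairs 36.1 and 110.3 kb downstream differed by -0.02 and -0.06 with overlapping libraries. The strongest WT-only Prox1 peak lay 38.5 kb downstream in the last intron, read -0.46 and -0.63, and stood at percentile 55.1.

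The IR1 motif of FXR was matched at 1 site among these genes. The letters AGGTCANTGACCT, with at most 2 mismatches on either strand within 100 bp of the centre, matched at 1 of 41 WT members (2.44%, 0.43 to 12.6), where 11.8% of all WT peaks and 0.896% of windows 2 kb away matched. In LKO, 1 of 22 members matched (4.55%, 0.81 to 21.8), against 16.2% of all peaks and 0.976% of windows. Both intervals include the share of the whole list, so a lower share at the members was not shown. Both matches were the same site at the Hnf4a promoter, AAGTCAATGATCT (chr2:163546780-163546792, + strand), which differs from the motif at G2A and C11T, counted from 1 at its 5′ end with the motif's base given before the position. Over all WT peaks the share with IR1 rose from 8.24% in the weakest quartile to 20.02% in the strongest, and 0 of the 11 members in the strongest quartile had a match.

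The DR1 letters, AGGTCANAGGTCA with the same rules, matched at 5 of 41 WT members (12.2%, against 12.8% of all) and 5 of 22 LKO members (22.7%, 10.1 to 43.4, against 11.9%). IR1 and DR1 share the AGGTCA half-site, so a window can match both; none of the members did. The DR1 matches were at the Cebpa peaks 1.4 kb upstream and 24.7 kb downstream, the Foxa2 peak 19.8 kb downstream, the Prox1 WT-only peaks 41.4 kb downstream and 10.3 kb upstream, and the LKO-only peaks of Foxa2 38.9 kb upstream and Foxa3. The Prox1 match 10.3 kb upstream, AGGTCAAAGGGCA, was the closest to the motif, with the single difference T11G.

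The forkhead letters TGTTTNC, with no mismatch, were found at 20 of 41 WT members (48.8%, 34.3 to 63.5) against 23.0% of all WT peaks and 16.6% of windows 2 kb away. In LKO they were found at 10 of 22 members (45.5%, 26.9 to 65.3) against 22.7% of all peaks. Both intervals lay above the share of the whole list, but the lists are not independent here, since all 10 LKO matches were at shared pairs. Peaks of the same gene share a locus and are not independent either, which the intervals do not cover. This motif, like the others besides IR1, was searched after the data had been seen. The WT share was also above that of peaks of the same class, with 11 of 22 intergenic and 8 of 13 intronic WT members, against 25.7% and 23.7% of all such peaks. At the 17 WT peaks of the Foxa genes themselves there were 11 with a match, and at the other 24 members 9 (37.5%, 21.2 to 57.3), an interval that includes 23.0%. In WT the shared and the WT-only members had matches at 10 of 18 and 10 of 23, and in LKO 10 of 18 shared and 0 of 4 LKO-only members had one. The Foxa2 peak 102.6 kb downstream had one, as its sequence shown earlier marks.

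**Figure D4:**
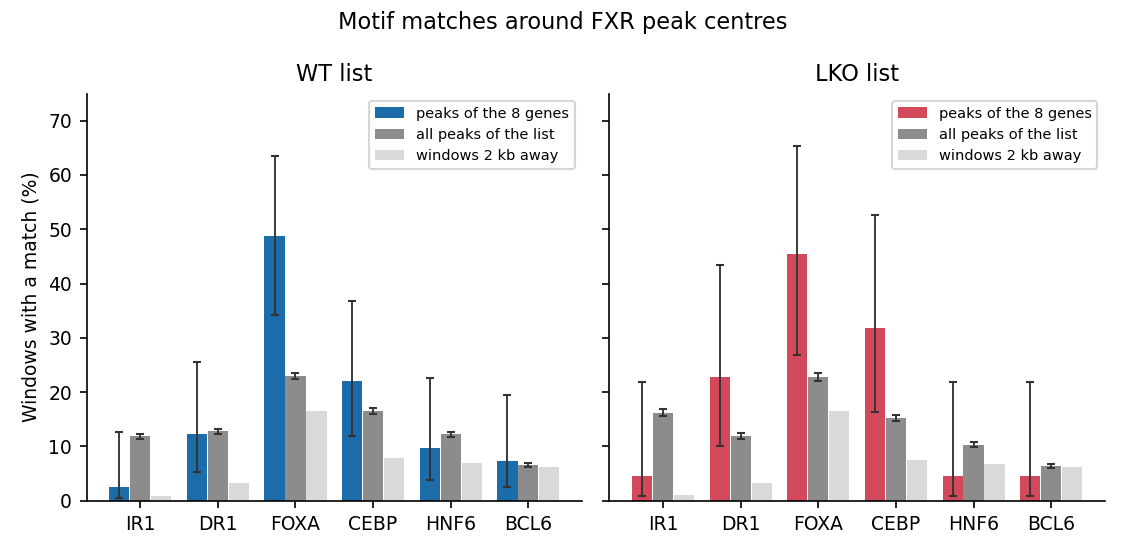
Share of windows of 100 bp to each side of peak centres with a motif match (%, bars) for the peaks of the 8 genes (coloured), all peaks of the list (dark grey) and windows 2 kb away (light grey), with 95% Wilson intervals where drawn. In WT the members had IR1 in 2.44% and FOXA in 48.8% of windows, against 11.8% and 23.0% of all peaks.

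Matches to the C/EBP letters TTGCNNAA were found at 9 of 41 WT members (21.95%, 12 to 36.7, against 16.5% of all) and 7 of 22 LKO members (31.8%, 16.4 to 52.7, against 15.2%). The Cebpb peak had one, and none of the 8 Cebpa peaks did. HNF6 letters, ATCAAT, were at 4 of 41 WT members, of which 2 were at Onecut1, and at 1 of 22 LKO members, against 12.2% and 10.3% of all peaks. The letters TTCNNNGAA, recognised by BCL6 and also by STAT proteins, were at 3 of 41 WT members (7.32%, against 6.56%) and 1 of 22 LKO members (4.55%, against 6.39%). The WT matches were at Foxa2 76.9 kb downstream and at Prox1 36.1 kb downstream and 10.3 kb upstream. A match is a description of these letters only and shows no binding.

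Lists of other transcription factor genes were set beside the 8. Of 16 other hepatocyte factor genes, 15 had a WT peak and 14 an LKO peak, with 69 and 42 peaks, and 34 of the 69 WT peaks were shared (49.3%, 37.8 to 60.8). Of 12 factor genes of other liver lineages, 7 had a WT peak and 6 an LKO peak, and Spi1, Gata1, Tal1, Gata2 and Lhx2 had none. Their 15 WT and 13 LKO peaks included 11 shared pairs (73.3% of the WT peaks, 48.0 to 89.1). The interval of the 8 genes, 29.9 to 59.0, overlapped that of both lists, and no test of the difference was made. The counts of genes with a peak were not set against the share of all annotated genes with one.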

How the data were processed

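FXR ChIP-seq was read from 2 deposited peak tables, WT and LKO, covering 6 samples grouped by their labels. Per the labels and the study's methods, the authors crosslinked male liver with DSG and formaldehyde, immunoprecipitated FXR and aligned single-end reads to mm10, keeping unique alignments and 1 tag per position. The submitters' processing notes name Bowtie 1.2 and HOMER 4.10. Peak calling, per the file headers, used both ChIP libraries of a genotype pooled against its input. DESeq2 against input then served as a filter in the authors' hands (FDR 0.05, log2 fold 1). Those fold change and p-value columns are the authors' comparisons of ChIP with input and were not used. The deposited values per library are called tag counts in the header but are not whole and can be negative, so they were taken as regularized log2 values fitted within each table. Such values are shrunken, most at low counts. The deposited Peak Score, a signal of pooled tags per 10000000, was not compared between tables.

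From these, relative levels, overlaps and shares with 95% Wilson intervals (counting error over peaks only) were computed. Estimated tags were 2 raised to the log2 value, times the library total over the mean total of the table's 3 libraries. Motifs were searched in GRCm38.p6 sequence. It fitted the files' coordinates: no peak fell outside a chromosome, and TSS distances recomputed from RefSeq came within 2 bp of the deposited ones at all 41 and 22 members. The design's conditional test between genotypes was not run, since the tables were normalized separately. Nothing in the labels says that replicates were separate mice beyond their identifiers, so the spread may be partly technical.

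The peaks named were, for each gene, the strongest WT peak, every promoter and LKO-only peak and the strongest WT-only peak. One shared pair that the rule would name is counted but not reported here on its own. The other shared peaks named were chosen after their values were seen, as were the motifs other than IR1 and the search by class and by factor gene. The members and lists were chosen with earlier results of these data known. Alternatives changed thresholds, overlap rules, gene assignment, motif rules, scales and libraries. The overlap and motif code, tested on simulated data first, ran under Python 3.11.15 with pandas 2.3.3, numpy 2.4.6, matplotlib 3.10.9 and scipy 1.17.1.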

Additional observations from a re-analysis of the deposited data

How the results depend on the processing

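The number of WT members fell from 41 to 25 when peaks had to reach the median strength of their list, and to 20 when both libraries had to hold at least 10 estimated tags; LKO members fell from 22 to 11 with the strength limit and stayed at 22 with the tag limit. With the 50 kb gene window they were 54 and 32. Cutting the WT list to the strongest peaks, as many as in LKO, raised the shared share of WT members from 43.9% to 60.7% (17 of 28), against 68.3% of all peaks, since weak peaks left the list. With the strength limit, 100% of LKO members were shared (11 of 11), against 85.0% of all LKO peaks. The other overlap rules, the gene window, the input limit and leaving out Cebpa, Foxa2 and Prox1 kept the shares within the main intervals. IR1 shares became 0.0% in both lists with at most 1 mismatch, the single site having 2, against 2.46% of all WT and 3.55% of all LKO peaks. With TGTTTAC, chosen after seeing the data like the tag and input limits, the left-out genes and the library-total scale, forkhead shares were 29.3% of WT and 22.7% of LKO members, against 6.71% and 6.75% of all peaks. Over shared members, the median difference was -0.46 on deposited values, -0.61 with centring on all peaks of a table and -1.28 on the library-total scale, and all 18 differences were then negative. Each of these scales shifts the mean difference of every shared pair by the same amount, members and others alike. The medians over all shared pairs were not computed on them. Leaving out 1 library gave medians of -0.27 to -0.16. It changed the sign at 4 of 18 peaks without either WT library, 1 without LKO replicate 1 and 6 without LKO replicate 2. Pairs with non-overlapping libraries cannot change sign in this way, so the sign check says nothing about them. No paired analysis was possible because nothing ties the replicate numbers to pairs of mice. The genotypes were also not tested against each other. Depth limits the WT levels, since WT replicate 2 held 2883717 tags.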
